A study of Rattus norvegicus with 16 samples.

Results

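The genes described here are the Myc family and its growth targets, chosen by gene symbol: Myc, Mycn, Mycl, Max, Mxd1, Odc1, Ncl, Npm1, Nolc1 and Fbl. All 10 had probe sets on the array, 16 of the 31042 that were not controls. Of these, 13 carried 1 gene symbol, and the 3 of Npm1 were annotated together with the pseudogene Npm1-ps9. At the level of genes, each represented by its brightest probe set, 9 of the 10 were among the 14217 tested, since Npm1 had no probe set of its own.

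RNA of isolated islets, the endocrine clusters of the pancreas, came from male Wistar rats aged 8 weeks and was measured on 16 Affymetrix arrays. On 5 arrays the islets had received AdNkx6.1, an adenovirus expressing the beta cell transcription factor Nkx6.1, on 6 arrays Adβgal, the control virus expressing β-galactosidase, and on 5 arrays they were untreated. Culture medium held 8 mM glucose with 10% serum. Viruses were left on for 18 h, and the collection of islets followed at 48 h. The labels call the arrays biological replicates but do not tie them to animals, so p-values measure the spread between these samples. The treatment protocol gives 5 replicates a condition, and all 6 Adβgal arrays were used. The labels name no promoter for the viruses and no share of cells reached, and an islet is a mixture of cell types, in which fewer cells of a type and less RNA per cell cannot be told apart.

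Values are intensities, which are specific to a probe set and show no order between genes. A log2 change ± SE comes from limma's fit over the 3 groups, gives the group named first minus its comparator, and was called at an adjusted p under 0.05 over all genes. The islet hormones Ins1, Gcg and Sst lay between 22087 and 30445, between 22046 and 28875, and between 15276 and 20770 on the 16 arrays. Adβgal replicates 4, 5 and 6 stood apart by acinar markers: the mean of 23 measured markers, centred on its mean over all arrays, was 1.77, 1.11 and 1.18 on them. It lay between -1.31 and 0.32 with AdNkx6.1, between -1.07 and 0.5 on the other Adβgal arrays, and between -0.69 and 0.14 untreated. The mean of 22 leukocyte markers was 0.37, 0.43 and 0.8 on the same 3 Adβgal arrays and at most 0.15 on every other array. The mean of 12 stellate and fibroblast markers was 0.28, 0.32 and 0.16 on them and at most 0.14 elsewhere. The mean of 10 endothelial markers was 1.6 and 0.82 on Adβgal replicates 5 and 6, -0.04 on replicate 4, and -1.19 to 0.48 on the other arrays. The mean of 10 duct markers was 0.09 to 0.32 with AdNkx6.1, -0.35 to 0.15 with Adβgal and -0.23 to -0.1 untreated, with 5 of the 10 higher with AdNkx6.1 than with Adβgal. The mean of 15 beta cell and islet markers was -0.24 to -0.12 with AdNkx6.1, -0.13 to 0.05 with Adβgal and 0.13 to 0.25 untreated. Of the 15, 3 were called lower with AdNkx6.1 than with Adβgal and 11 lower than untreated. Among all genes, 16.6% were called higher and 8.48% lower with AdNkx6.1 than with Adβgal, and 13.8% lower than untreated. The part of these markers in the results was not tested. Adβgal replicate 5 also had the largest gap between 3' and 5' control probe sets of beta-actin, 5.35 on the log2 scale against 2.48 to 3.96 on the other 15 arrays. The level of Nkx6-1, the gene the virus carries, averaged 11.43 ± 0.17 with AdNkx6.1 and 11.9 ± 0.19 with Adβgal (log2 intensity, SD, n = 5 and 6), a 1.38-fold lower value (adjusted p = 0.0023). Whether its probe set lies in the delivered sequence is not given in the sources used here, so this level does not check the labels.

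Myc, Mycn and Mycl are basic helix-loop-helix transcription factors that pair with Max and bind the E-box CACGTG, where they promote ribosome production, biosynthesis and growth. Mxd1 competes for Max and represses the same sites. Odc1, the first enzyme of polyamine synthesis, is a textbook Myc target, and nucleolin (Ncl), nucleophosmin (Npm1), Nolc1 and fibrillarin (Fbl) are nucleolar proteins of ribosome production. In beta cells Myc is known for a role in replication and, at sustained high levels, for loss of the mature state.

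Promoter windows run from 250 bases before to 50 after a start site of the gene and were taken from RefSeq on build GRCr8. They matched 8 of the 10 members by symbol, the others being Myc and Mycn. For Fbl and Ncl the start site is the end of the gene locus given below. For the other members with a window it lies inside that locus, so positions count from the start site and not from the locus end. Of the 6 members called in any comparison, the 4 with a window are shown, together with that of Ncl, a nucleolar member that was called in none. They lie at chr5:140559903-140560202 on the plus strand for Mycl, chr4:120675080-120675379 on the minus strand for Mxd1, chr6:46058415-46058714 on the plus strand for Odc1, chr1:92597157-92597456 on the plus strand for Fbl and chr9:94456034-94456333 on the minus strand for Ncl. Each is written 5' to 3', and capitals mark the E-box CACGTG or its variant CACGCG on either strand.
Mycl: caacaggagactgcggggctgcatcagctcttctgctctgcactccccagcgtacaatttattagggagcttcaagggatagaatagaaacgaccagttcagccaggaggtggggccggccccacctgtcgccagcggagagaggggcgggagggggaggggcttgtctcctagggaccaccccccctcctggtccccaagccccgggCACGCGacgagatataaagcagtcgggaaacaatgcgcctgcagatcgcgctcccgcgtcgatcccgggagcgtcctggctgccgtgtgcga
Mxd1: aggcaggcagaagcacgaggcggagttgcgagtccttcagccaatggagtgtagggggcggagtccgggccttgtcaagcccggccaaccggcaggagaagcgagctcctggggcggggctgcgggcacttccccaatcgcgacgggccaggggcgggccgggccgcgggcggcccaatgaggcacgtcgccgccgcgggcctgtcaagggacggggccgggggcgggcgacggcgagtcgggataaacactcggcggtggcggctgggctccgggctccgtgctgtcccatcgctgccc
Odc1: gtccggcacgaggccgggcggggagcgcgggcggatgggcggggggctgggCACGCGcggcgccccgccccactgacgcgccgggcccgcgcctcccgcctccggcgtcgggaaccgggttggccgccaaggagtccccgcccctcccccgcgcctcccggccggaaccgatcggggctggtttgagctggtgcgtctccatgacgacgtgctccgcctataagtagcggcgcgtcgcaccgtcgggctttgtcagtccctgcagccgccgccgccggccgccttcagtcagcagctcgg
Fbl: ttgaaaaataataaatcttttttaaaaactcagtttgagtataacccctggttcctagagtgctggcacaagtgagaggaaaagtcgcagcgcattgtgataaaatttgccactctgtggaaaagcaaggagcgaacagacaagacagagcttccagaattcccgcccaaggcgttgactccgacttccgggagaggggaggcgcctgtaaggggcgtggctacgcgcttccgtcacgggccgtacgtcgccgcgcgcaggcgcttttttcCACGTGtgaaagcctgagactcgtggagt
Ncl: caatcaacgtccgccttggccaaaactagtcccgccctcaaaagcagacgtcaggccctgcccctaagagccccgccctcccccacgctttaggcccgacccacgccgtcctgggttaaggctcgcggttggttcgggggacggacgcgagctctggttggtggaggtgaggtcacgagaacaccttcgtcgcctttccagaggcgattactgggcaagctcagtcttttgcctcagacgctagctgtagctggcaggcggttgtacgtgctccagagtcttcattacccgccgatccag
Of these, the window of Fbl held a CACGTG, at position 22 after the start site. Mycl and Odc1 each held a CACGCG, at positions -42 and -199. Among the 8 members CACGTG was in 2 windows, those of Fbl and Max (position -33), against 6.42% of 33469 windows in the table. CACGCG or its reverse complement CGCGTG was in 3, those of Mycl, Odc1 and Nolc1, against 8.5% of all windows. CACGTG reads the same on both strands and shares no site with the variant here. A match describes the letters of this window and is not a binding site.

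The first comparison, AdNkx6.1 against Adβgal, sets the Nkx6.1 virus against a virus without it. Myc was 1.68-fold lower with AdNkx6.1, while its relatives Mycn and Mycl were 2.04-fold and 1.5-fold higher and the nucleolar methyltransferase Fbl was 1.39-fold higher. In the gene fit, 25.0% of all genes were called in this comparison, 16.6% higher and 8.48% lower, and 4 of the 9 members were called, 3 higher and 1 lower. The median log2 change of the members was 0.27, against 0.02 over all genes. Of the 16 probe sets, 3 were higher and 1 lower, those of the same 4 genes, where 20.0% of all probe sets were called, 11.0% higher and 8.98% lower.

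**Figure D1:**
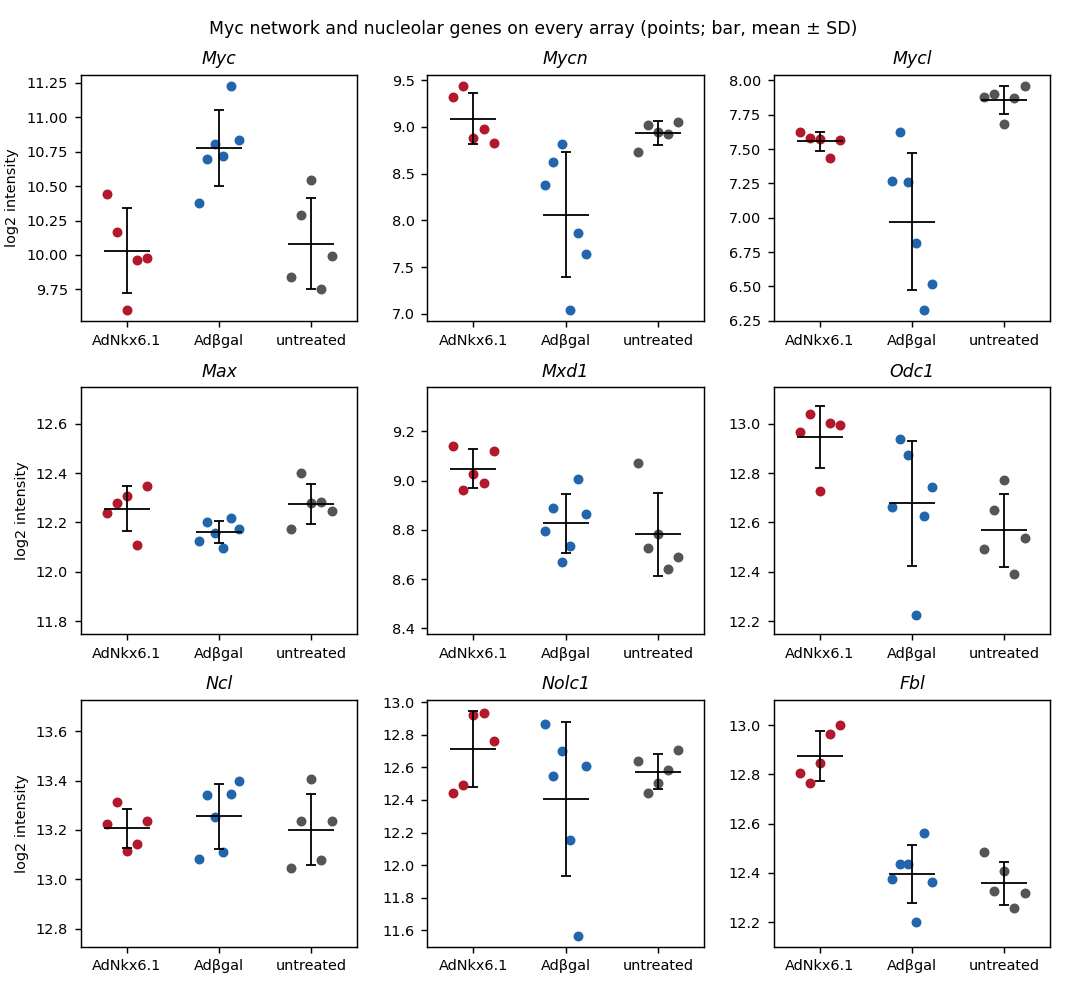
Log2 intensity of the 9 member genes with a probe set of their own (vertical axes, one scale per gene) on each array of the AdNkx6.1, Adβgal and untreated groups; points are arrays and bars the mean ± SD. Fbl was higher on every AdNkx6.1 array than on any other array, Myc had its 5 highest values with Adβgal, and Mycn and Mycl had their 3 lowest values there.

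Myc (probe set 1368308_at, gene at chr7:95483105-95488031 in GRCr8) read 1391.9, 1147.9, 776.6, 1000.4 and 1009.8 with AdNkx6.1. With Adβgal the lowest, median and highest of 6 arrays were 1328.9, 1737.8 and 2402.5. Untreated islets had 914.5, 1251.4, 1491.3, 860.6 and 1018.9. The AdNkx6.1 and untreated ranges lay over each other, and 5 of the 6 Adβgal arrays were above every other array. The log2 change of Myc was -0.75 ± 0.17 for AdNkx6.1 against Adβgal (adjusted p = 0.0042, n = 5 and 6). It stayed called in all 26 alternatives, between -0.85 and -0.6. The highest array was Adβgal replicate 5, the one with the wide 3' to 5' gap. Without it the change was -0.66 ± 0.16 (adjusted p = 0.0075). In each group Myc was highest on the array with the widest beta-actin gap. It was lowest on the array with the narrowest gap with AdNkx6.1 (2.48) and Adβgal (2.56), but not untreated. With this gap added to the fit as a covariate the change was -0.66 ± 0.11 (adjusted p = 0.00036). The part of the gap in the Myc values was not tested.

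The other family members moved the opposite way. Mycn (1376648_at, chr6:41446683-41452584) is the paralog best known from neural progenitors. It read 637.7, 694.9, 471.6, 504.4 and 454.8 with AdNkx6.1, against 132.0, 283.1 and 450.6 as the lowest, median and highest with Adβgal. Every AdNkx6.1 array was above every Adβgal array, with a log2 change of 1.03 ± 0.25 (adjusted p = 0.0059). The spread was wider with Adβgal, with an SD of 0.67 against 0.27 with AdNkx6.1. The 3 lowest arrays, at 132.0, 232.9 and 199.1, were Adβgal replicates 4, 5 and 6, those with high acinar and leukocyte markers. Without these 3 arrays the change was 0.48 ± 0.14 (adjusted p = 0.023). The part of the other cell types in it was not tested.

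Mycl (1395781_at, chr5:140559843-140566704), the third paralog, gave a less stable call. Its intensities were 197.3, 191.5, 190.1, 173.2 and 189.3 with AdNkx6.1, against a lowest, median and highest of 80.5, 132.8 and 197.8 with Adβgal. The highest Adβgal array reached the AdNkx6.1 range, and the other 5 were below it. The log2 change was 0.59 ± 0.18 (adjusted p = 0.025). Mycl too was lowest on Adβgal replicates 4, 5 and 6, at 112.6, 80.5 and 91.6, and without them the change was 0.17 ± 0.09 (adjusted p = 0.19). The call also ended without AdNkx6.1 replicate 1 or 5 (adjusted p = 0.051 each), without Adβgal replicate 6 (0.054), after quantile normalization (0.43, adjusted p = 0.13), after median centring (0.52, adjusted p = 0.057) and with the 2 groups fitted alone (0.072).

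By their brightest probe sets, the shared partner and its antagonist differed less. Max (1372090_at, chr6:101369989-101395333), the obligate partner of the Myc proteins, read 4832.7, 4963.1, 5066.6, 4414.8 and 5207.6 with AdNkx6.1, against a lowest, median and highest of 4381.8, 4594.5 and 4766.5 with Adβgal. The groups overlapped, and the log2 change of 0.09 ± 0.06 was not called (adjusted p = 0.28). The other Max probe set, 1387646_a_at, changed by 0.78 ± 0.43 and was not called in the fit over probe sets (adjusted p = 0.23). Mxd1 (1376077_at, chr4:120654731-120678972), the repressor, read 565.0, 499.2, 521.0, 509.2 and 556.2 with AdNkx6.1, against a lowest, median and highest of 406.7, 455.0 and 514.5 with Adβgal. Only the highest Adβgal array reached into the AdNkx6.1 range. The log2 change of 0.22 ± 0.08 missed the threshold (adjusted p = 0.06). It was called in 5 of 26 alternatives, without Adβgal replicate 5 among them (0.26, adjusted p = 0.026) and without untreated replicate 1 (0.22, adjusted p = 0.028).

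Among the growth targets, Fbl had the smallest adjusted p of the 9 members. Fibrillarin (1388528_at, chr1:92597407-92606507) methylates ribosomal RNA, guided by box C/D small nucleolar RNAs. It read 7167.0, 6952.5, 7363.0, 7988.8 and 8188.8 with AdNkx6.1. With Adβgal the lowest, median and highest were 4711.1, 5432.0 and 6045.7, and untreated islets had 5725.2, 5139.6, 5431.2, 4891.5 and 5109.9. The AdNkx6.1 arrays lay above all 11 others, which overlapped. Against Adβgal the log2 change was 0.48 ± 0.07 (adjusted p = 0.00013), between 0.42 and 0.51 in the 26 alternatives, all of which called it. Without Adβgal replicates 4, 5 and 6 it was 0.46 ± 0.07.

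The other targets were not called against Adβgal. Odc1 (1370163_at, chr6:46058439-46065148) read 7999.7, 8426.1, 6788.4, 8217.8 and 8159.3 with AdNkx6.1, against a lowest, median and highest of 4784.0, 6672.4 and 7858.6 with Adβgal. The AdNkx6.1 arrays were in the upper part of the Adβgal range or above it, and the log2 change was 0.27 ± 0.11 (adjusted p = 0.096). Without Adβgal replicate 2 it was 0.32, with an adjusted p = 0.048; without Adβgal replicates 4, 5 and 6 it was 0.12 (adjusted p = 0.41). Ncl (1398832_at, chr9:94447559-94456083), which binds ribosomal RNA precursors, ran from 8867.9 to 10171.2 with AdNkx6.1 and from 8679.1 to 10809.1 with Adβgal. Its log2 change was -0.05 ± 0.08 (adjusted p = 0.7), the smallest in size among the 9 members. A p that misses the threshold does not show that the levels are equal.

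Npm1, a chaperone of ribosome assembly (chr10:18245739-18255913), was read by 3 probe sets that also match Npm1-ps9, on chromosome X, so their signal cannot be split between the gene and its pseudogene. The brightest of them over all arrays, 1399158_a_at, ran from 12807.7 to 14856.3 with AdNkx6.1 and from 10090.5 to 14491.4 with Adβgal. The log2 changes of the 3 were 0.08 ± 0.09, 0.03 ± 0.06 and 0.1 ± 0.09 for 1398756_at, 1398757_at and 1399158_a_at. In the fit over probe sets none was called in any comparison, with adjusted p-values from 0.45 to 0.97.

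Nolc1 (chr1:254870195-254881070), the nucleolar phosphoprotein that shuttles to coiled bodies, and Max each had probe sets that did not run together. The brightest Nolc1 probe set, 1368031_at, read 5570.6, 5774.5, 7782.3, 7822.4 and 6948.7 with AdNkx6.1, against a lowest, median and highest of 3032.4, 6118.6 and 7470.1 with Adβgal. The lowest array was Adβgal replicate 5, and the log2 change was 0.3 ± 0.18 (adjusted p = 0.25), which became 0.14 without that array and 0.01 without Adβgal replicates 4, 5 and 6. On that array 1368033_at of Nolc1 and 1387646_a_at of Max were also lowest, at 92.8 and 74.8, while 1368032_at of Nolc1 was at its highest, 2492.0. Over the 16 arrays the Pearson correlation of 1368031_at was 0.95 with 1368033_at and -0.66 with 1368032_at of the same gene, but 0.97 with 1387646_a_at of Max, a pair chosen after its values were seen. The 2 probe sets of Max had a correlation of 0.0. The 3' to 5' gap of beta-actin was 5.35 on Adβgal replicate 5 and 2.48 to 3.96 on the other arrays. With this gap added to the fit as a covariate, the log2 change of 1368031_at was 0.2 ± 0.08 (adjusted p = 0.062), not called. The part of the gap in the disagreement of the probe sets was not tested, and the correlations describe these arrays only. Log2 changes for AdNkx6.1 against Adβgal were -0.07 ± 0.12 for 1368032_at, 0.35 ± 0.31 for 1368033_at and 0.78 ± 0.43 for 1387646_a_at (adjusted p = 0.74, 0.47 and 0.23). The fourth Nolc1 probe set, 1382893_at, lay in the dimmest 25% of all probe sets and was not called.

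**Figure D2:**
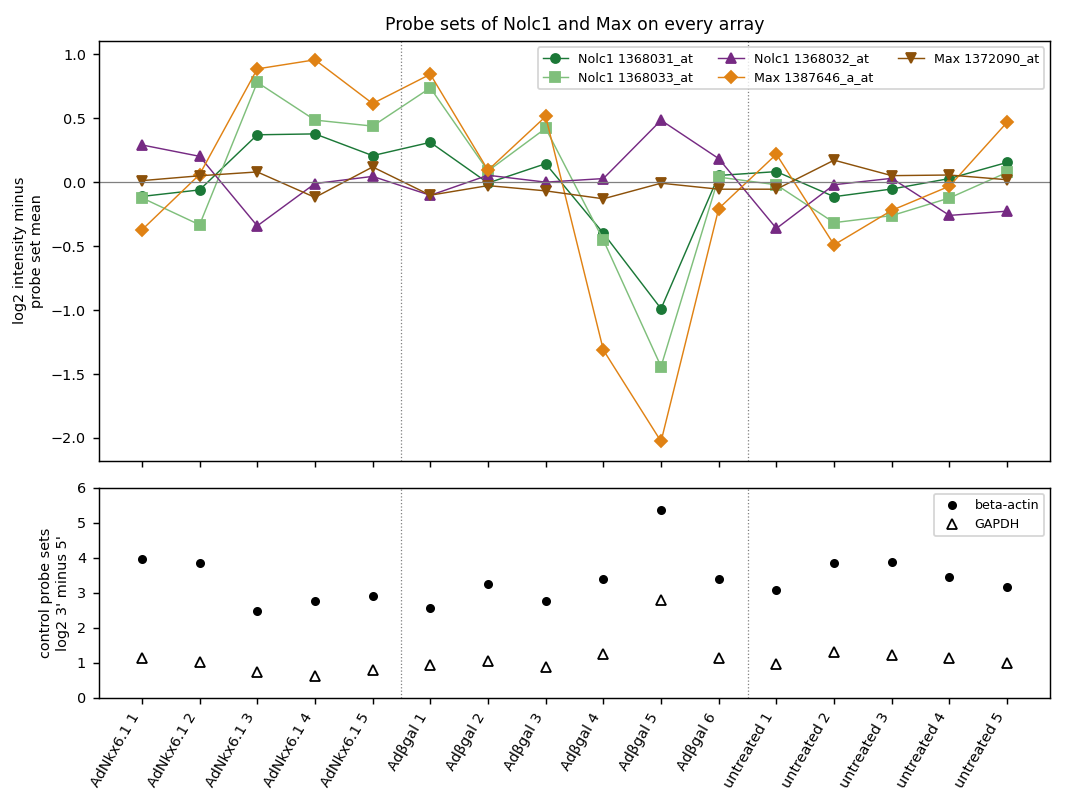
Upper panel: log2 intensity of 3 Nolc1 and 2 Max probe sets minus the mean of that probe set, on the 16 arrays. Lower panel: log2 difference between 3' and 5' control probe sets of beta-actin and GAPDH on the same arrays. On Adβgal replicate 5 the beta-actin difference was 5.35, Nolc1 1368031_at, Nolc1 1368033_at and Max 1387646_a_at were lowest, and Nolc1 1368032_at was highest.

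Adβgal against untreated asks what exposure to the control virus changed. Myc was 1.62-fold higher with Adβgal, and Mycn and Mycl were 1.83-fold and 1.85-fold lower, while none of the other 6 members was called. Of all genes 7.01% were called, 2.84% higher and 4.17% lower, and 3 of 9 members were called, 1 higher and 2 lower. The median change of the members was 0.04, against -0.04 over all genes. Of the 16 probe sets 1 was higher and 2 lower, where 8.65% of all were called, 4.58% higher and 4.07% lower. This comparison shares the Adβgal arrays with the one before, with the opposite sign, so its values for Myc, Mycn and Mycl are no separate evidence of what sets these arrays apart.

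**Figure D3:**
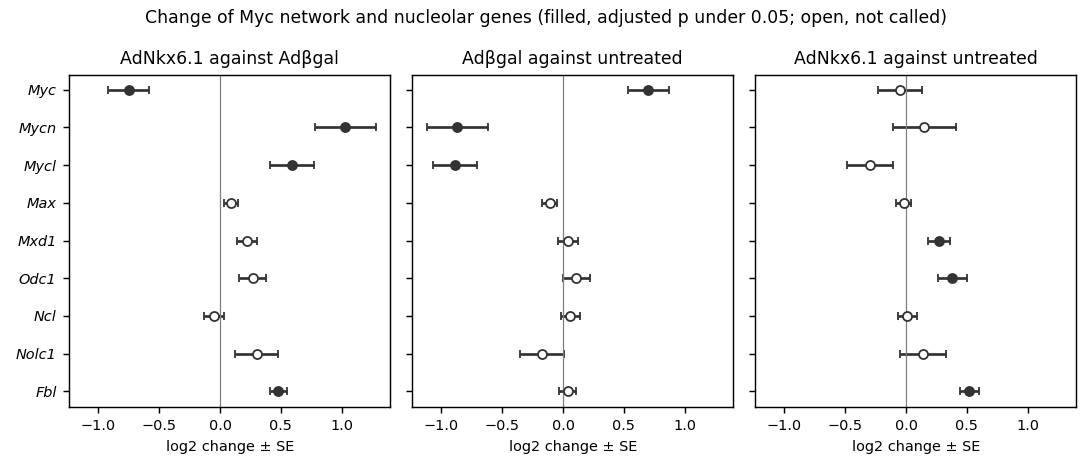
Log2 change ± SE of the 9 member genes (rows) in the 3 comparisons (panels); filled points passed an adjusted p of 0.05 in limma's fit and open points did not. Myc was below 0 and Mycn and Mycl above 0 for AdNkx6.1 against Adβgal, with the reverse for Adβgal against untreated; Fbl was higher with AdNkx6.1 against both other groups.

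The log2 change of Myc was 0.7 ± 0.17 with Adβgal against untreated (10.78 ± 0.28 and 10.08 ± 0.33, SD, n = 6 and 5; adjusted p = 0.024). The highest untreated array, 1491.3, was above the lowest Adβgal array, 1328.9. The adjusted p was 0.063, 0.073 and 0.062 without untreated replicate 1, 4 or 5, and 0.14 without Adβgal replicates 4, 5 and 6, where the change was 0.55 ± 0.2. With the beta-actin gap as a covariate the change was 0.71 ± 0.11 (adjusted p = 0.0016).

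Mycn had 424.7, 520.0, 491.7, 487.4 and 530.9 in untreated islets, which overlapped the Adβgal range at its upper end. Its log2 change was -0.87 ± 0.25 with Adβgal (adjusted p = 0.045), and the call held in 3 of 16 fits that left out 1 array. It ended without any 1 of the 5 AdNkx6.1 arrays, of the 5 untreated arrays or of Adβgal replicates 4, 5 and 6, with adjusted p-values from 0.051 to 0.1. Without those 3 Adβgal arrays together the change was -0.33 ± 0.14 (adjusted p = 0.21).

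Mycl read 235.1, 238.9, 205.9, 234.1 and 248.8 in untreated islets, above all Adβgal arrays and all AdNkx6.1 arrays. The log2 change was -0.89 ± 0.18 with Adβgal (adjusted p = 0.0087). It was called in all 26 alternatives, and without Adβgal replicates 4, 5 and 6 it was -0.47 ± 0.09 (adjusted p = 0.017). The remaining members changed by -0.17 to 0.11, with adjusted p-values from 0.25 for Max to 0.77 for Fbl and Mxd1.

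AdNkx6.1 against untreated shares its arrays with both other comparisons. Here the growth targets Fbl and Odc1 and the antagonist Mxd1 were higher, by 1.43-fold, 1.3-fold and 1.2-fold, and none of the 3 Myc paralogs was called. Of all genes 30.7% were called, 16.9% higher and 13.8% lower; 3 of 9 members were called, all higher, with a median of 0.14 against -0.01 over all genes. Of the 16 probe sets 3 were higher and none lower, where 20.8% of all were called, 10.2% higher and 10.6% lower.

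Fbl was at 12.88 ± 0.1 with AdNkx6.1 and 12.36 ± 0.09 untreated (log2 intensity, SD, n = 5 each), a log2 change of 0.52 ± 0.08 (adjusted p = 8.1e-05), and was called in all 26 alternatives. Odc1, with 5766.5, 6420.7, 6997.5, 5362.9 and 5936.3 untreated, was higher by 0.38 ± 0.12 (adjusted p = 0.023). The ranges overlapped through AdNkx6.1 replicate 3, at 6788.4. Without AdNkx6.1 replicate 2 or 4 or untreated replicate 4 the adjusted p was 0.05, 0.051 and 0.062. Mxd1 was higher by 0.27 ± 0.09 (adjusted p = 0.028), with 537.6, 424.1, 440.4, 399.9 and 412.6 untreated, and only untreated replicate 1 overlapped the AdNkx6.1 range. Its call held in 17 of 26 alternatives: it ended after quantile normalization (0.13, adjusted p = 0.21), after median centring (0.18, adjusted p = 0.082), with trend and robust moderation (0.068), and without AdNkx6.1 replicate 1 or 5 or untreated replicate 2, 3, 4 or 5 (0.065, 0.066, 0.063, 0.05, 0.077 and 0.07).

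For the Myc paralogs the same comparison gave log2 changes of -0.05 ± 0.18 for Myc (adjusted p = 0.86), 0.15 ± 0.26 for Mycn (0.7) and -0.3 ± 0.19 for Mycl (0.25). The Mycl groups did not overlap, with 173.2 to 197.3 with AdNkx6.1 and 205.9 to 248.8 untreated. With the 2 groups fitted alone Mycl was called (adjusted p = 0.0027), as it was with array weights (-0.32, adjusted p = 0.027) and without Adβgal replicates 4, 5 and 6 (adjusted p = 0.0071). Max, Ncl and Nolc1 changed by -0.02, 0.01 and 0.14 and were not called.

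Set side by side as mean log2 intensities, Myc stood at 10.03 with AdNkx6.1, 10.78 with Adβgal and 10.08 untreated, so Adβgal was highest and the other groups did not differ beyond their spread. Mycn stood at 9.09 with AdNkx6.1, 8.06 with Adβgal and 8.94 untreated, with Adβgal lowest and the others within their spread. Mycl stood at 7.56 with AdNkx6.1, 6.97 with Adβgal and 7.86 untreated, which puts untreated islets highest and Adβgal lowest. Fbl stood at 12.88 with AdNkx6.1, 12.4 with Adβgal and 12.36 untreated, where only AdNkx6.1 differed from the others beyond the spread.

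Other genes of the pathway were read from lists of the network, the nucleolus, RNA polymerase I, polyamines and further Myc targets. Each count is to be read against the share of all genes called: 25.0% for AdNkx6.1 against Adβgal (16.6% higher, 8.48% lower), 7.01% for Adβgal against untreated (2.84% and 4.17%) and 30.7% for AdNkx6.1 against untreated (16.9% and 13.8%). Of 20 other network genes, 3 rose and 1 fell with AdNkx6.1 against Adβgal, near the 25.0% of all genes, with a median of 0.08. The Myc-binding protein Mycbp rose by 0.62 ± 0.1 (adjusted p = 0.00026), Mxd3, a repressor that pairs with Max, by 0.56 ± 0.11 (0.0012) and the helicase Ruvbl2, a Myc cofactor, by 0.22 ± 0.08 (0.043), while Mycbp2 fell by 0.26 on the log2 scale (0.03). The call of Mycbp2 ended when any 1 of AdNkx6.1 replicates 3, 4 and 5 or of Adβgal replicates 2, 3, 5 and 6 was left out, which made the count of lower genes 0. Against untreated islets, 6 rose with AdNkx6.1 and 1 fell, where 16.9% of all genes were higher and 13.8% lower. Ruvbl1 and Ruvbl2 were higher by 0.41 and 0.42, and Mxd4 fell by 0.36. With arrays centred on the median these counts were 4 and 3, and after quantile normalization 3 and 1. Mxd4 also fell by 0.37 with Adβgal against untreated (adjusted p = 0.014), where Ruvbl1 was higher by 0.27 (0.036); neither was called without Adβgal replicates 4, 5 and 6, and with 1 array left out the call of Ruvbl1 ended without AdNkx6.1 replicate 5, Adβgal replicate 1, 4 or 6 or untreated replicate 1, 2, 4 or 5.

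With AdNkx6.1 against Adβgal the counts of ribosome production genes were near those of all genes. Of 58 genes of ribosomal RNA processing and the nucleolus, 7 rose and 6 fell. Of all genes, 16.6% were higher and 8.48% lower there, and the list's median of 0.02 equalled that of all genes. Bop1, of the complex that matures the large subunit, rose by 0.56 ± 0.1 (adjusted p = 0.00073) and Nop16 by 0.3 ± 0.09 (0.017), while the exosome subunit Exosc2 fell by 0.46 on the log2 scale (0.0011) and Wdr75 and Tcof1 each fell by 0.37. Without Adβgal replicates 4, 5 and 6 the counts were 9 higher and 2 lower, and with arrays centred on the median 4 higher and 9 lower. The higher genes were 4 and 3 without AdNkx6.1 replicate 4 or 5, and the lower genes 3 without AdNkx6.1 replicate 3 or 5. Against untreated islets 15 rose and 3 fell, where 16.9% of all genes were higher and 13.8% lower, with a median of 0.08. Rrp9, a protein of the U3 small nucleolar particle, rose by 0.6 ± 0.12 (0.0012), Bop1 by 0.54 and Nop16 by 0.52. With arrays centred on the median these counts were 12 and 7. With Adβgal against untreated 3 rose, Nhp2 (0.39), Tcof1 (0.37) and Nifk (0.27), and none fell; the count was 1 without Adβgal replicates 4, 5 and 6 together or without untreated replicate 2, 4 or 5, and 5 without Adβgal replicate 4.

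Of 14 measured genes of RNA polymerase I, which makes the ribosomal RNA precursor, 3 rose and 1 fell with AdNkx6.1 against Adβgal (median 0.02), near the 25.0% called over all genes. The subunit Polr1g rose by 0.65 ± 0.12 (adjusted p = 0.00069), the activator Ubtf by 0.41 ± 0.1 (0.005) and the subunit Polr1h by 0.28, and Taf1d fell by 0.56 on the log2 scale (0.023). Without Adβgal replicates 4, 5 and 6, or without AdNkx6.1 replicate 5, no gene of the list was called lower. Against untreated islets Polr1g, Polr1e and Ubtf were higher with AdNkx6.1, by 0.66, 0.66 and 0.41, and none was lower. Of all genes, 16.9% were higher and 13.8% lower there. Taf1d was the only one of the list called with Adβgal against untreated, higher by 0.73 ± 0.17 (0.018), and no gene was called there without Adβgal replicates 4, 5 and 6 or without untreated replicate 2.

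Around Odc1, 3 of 15 other polyamine genes rose and 3 fell with AdNkx6.1 against Adβgal, where 16.6% of all genes were higher and 8.48% lower, with a median of 0.13. The arginase Arg2, which makes the ornithine that Odc1 uses, rose 3.14-fold (1.65 ± 0.15, adjusted p = 7.1e-07), and the antizyme inhibitors Azin2 and Azin1 rose by 1.09 ± 0.15 (6.2e-05) and 0.28 ± 0.09 (0.03). The other arginase, Arg1, fell by 0.46, spermine synthase Sms by 0.42 and the acetyltransferase Sat1, which starts polyamine breakdown, by 0.3 on the log2 scale. Without Adβgal replicates 4, 5 and 6 the counts were 5 higher and 3 lower. Against untreated islets Arg2 and Azin2 were higher by 1.49 and 0.96, and 4 genes fell, Agmat by 0.75, Arg1 by 0.56, Sms by 0.28 and Amd1 by 0.27, where 16.9% of all genes were higher and 13.8% lower. Without Adβgal replicate 4 or 5 alone, or without replicates 4, 5 and 6, 4 genes were higher. Agmat and Amd1 also fell with Adβgal against untreated, by 0.94 and 0.3, where without untreated replicate 5 the count was 1, and without untreated replicate 3 another gene was called higher.

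Of 44 further classical Myc targets, 11 rose and 2 fell with AdNkx6.1 against Adβgal (median 0.12). Of all genes, 16.6% were higher and 8.48% lower there. Against untreated, 15 rose and 2 fell (median 0.14), where 16.9% of all genes were higher and 13.8% lower. With arrays centred on the median the counts were 7 and 3 against Adβgal and 9 and 6 against untreated. The higher genes against Adβgal were 7 without AdNkx6.1 replicate 4 or Adβgal replicate 3. The lower genes against untreated were 1 without AdNkx6.1 replicate 3 or 4 or untreated replicate 3. The glutamine transporter Slc1a5 rose by 0.96 ± 0.11 (adjusted p = 8.5e-06), the cell cycle factor E2f1 by 0.96 ± 0.13 (5.6e-05), the pyrimidine enzyme Dhodh by 0.68 ± 0.08 (1.6e-05) and the phosphatase Cdc25a by 0.66 ± 0.13 (0.0011), while the folate enzyme Shmt1 fell by 0.44 and Mthfd2, another folate enzyme named after its value was seen, by 0.3. Slc1a5 was the only one called with Adβgal against untreated (0.39 ± 0.11, adjusted p = 0.039). The count was 2 without Adβgal replicate 5, and 0 without AdNkx6.1 replicate 4 or 5, Adβgal replicate 3 or 6 or untreated replicate 2, 3, 4 or 5. Of 10 genes that Myc is known to repress, 5 rose and none fell with AdNkx6.1 against Adβgal, where 16.6% of all genes were higher and 8.48% lower. They were the cell cycle inhibitors Cdkn1c (3.56 ± 0.18) and Cdkn1a (1.05 ± 0.07), the differentiation factor Cebpa (1.52 ± 0.14), Ndrg2 (0.6 ± 0.16) and Txnip (0.29 ± 0.09). Against untreated islets 5 rose, where 16.9% of all genes were higher and 13.8% lower, and Ndrg1 and Cdkn2b fell by 0.34 and 0.22, the second named after its value was seen; 1 was called without AdNkx6.1 replicate 2, 4 or 5, Adβgal replicate 3 or untreated replicate 1, 2, 3 or 5. With Adβgal against untreated 2 rose, Txnip by 0.85 ± 0.09 and Cdkn1a by 0.3, and Ndrg1 fell by 0.35. Without Adβgal replicates 4, 5 and 6 the counts were 1 and 0, the higher genes were 1 without untreated replicate 4 or 5, and the lower 2 without Adβgal replicate 2.

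**Figure D4:**
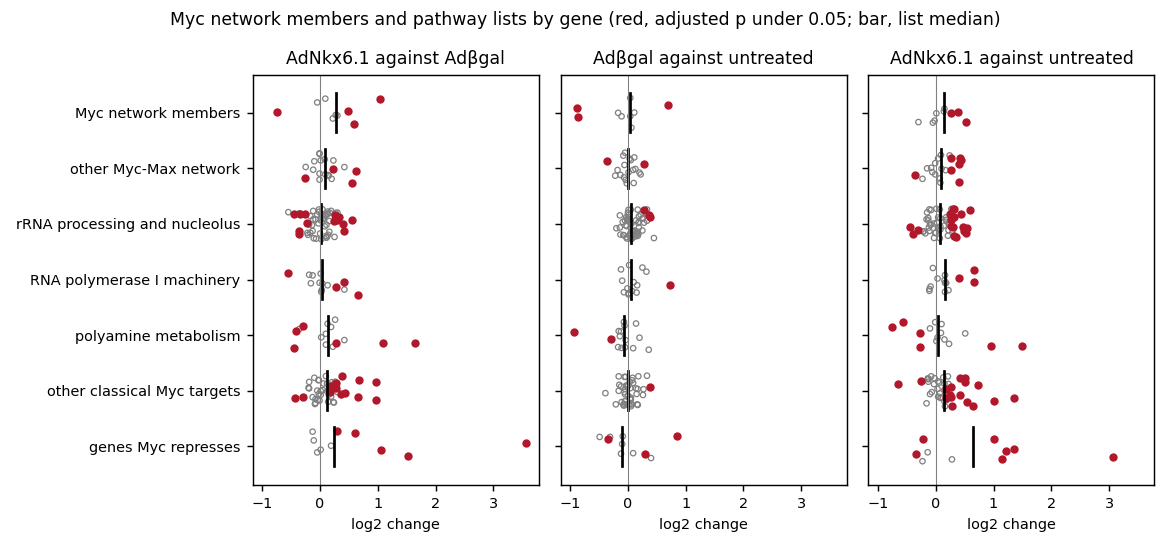
Log2 change of each measured gene (points, horizontal axes) of the members and 6 pathway lists (rows) in the 3 comparisons (panels); red points passed an adjusted p of 0.05, open points did not, and black bars are list medians. In the panels of AdNkx6.1 against Adβgal and against untreated the widest spread was in the genes Myc represses, up to 3.56 and 3.07, and the nucleolar list lay on both sides of 0.

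The genes whose levels were most like Myc over the 16 arrays were Shc4 (Pearson r = 0.96), Gtpbp2 (0.919), Fez2 (0.915), Bod1l1 (0.91) and Tns2 (0.904). Among the members, r with Myc was 0.625 for Ncl, -0.74 for Mycl, -0.675 for Nolc1 and -0.569 for Mycn. It was -0.345 for Max, -0.335 for Fbl, -0.15 for Mxd1 and 0.021 for Odc1. Each gene stands here by its brightest probe set. For Nolc1 this is 1368031_at, which had r = -0.66 with 1368032_at of the same gene, so the value holds for that probe set only. Most like the mean of the standardized Ncl, Nolc1 and Fbl were Gmfb (0.948), Rcc2 (0.923), Brms1 (0.911), Poc1a (0.907) and Ggct (0.905), and Odc1 had r = 0.892. These values describe 16 arrays that share the 3 groups, the Adβgal arrays that stood apart and the differing 3' to 5' gaps. The part of the gap in these correlations was not tested.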

How the data were processed

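The deposited table holds 1 probe set intensity per array on a linear scale; the authors used RMA per the submitters' processing notes, which normalizes between arrays, and no version or later step is given in the sources used here. It had been assumed beforehand to be on a log2 scale. Since the values proved linear, the log2 of each intensity was taken, with no pseudocount. Of 31099 probe sets 57 controls were left out; detection calls were not used here. The other 31042 were fitted as probe sets and, with 1 symbol and the brightest probe set per gene, as 14217 genes. A linear model of limma 3.58.1 (R 4.3.3), moderated with eBayes defaults, was fitted over the 3 groups, with Benjamini-Hochberg adjustment over all features and a threshold of 0.05; it was tested on simulated data. No fit dropped an array unless said. The array median intensity was 264.8 to 296.2, and the number of arrays limits precision.

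The members and lists were chosen with earlier results of these data known. Named beside the members were Nkx6-1, up to 6 genes per list and comparison by smallest p, and the 5 genes most correlated with Myc and with the mean of Ncl, Nolc1 and Fbl; Npm1, named in that rule, had no own probe set. Alternatives covered normalization, centring, dim probe sets, moderation, array weights, the groups fitted, probe sets averaged, the replicate number as a block, and left-out arrays; the beta-actin covariate and the list counts were added after seeing the data. Promoter sequences and loci are those of RefSeq, build GRCr8.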

Additional observations from a re-analysis of the deposited data

Results flagged for a closer look

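Among 48 sets of values, 1 per member probe set and group, 2 held an array set far from the rest of its group by Dixon's criterion, and chance alone gives about 1 in 20. Odc1 was lowest on AdNkx6.1 replicate 3, at 6788.4, against 7999.7 on the next array and 8426.1 on the highest. The Npm1 probe set 1398757_at, shared with Npm1-ps9, was lowest on AdNkx6.1 replicate 1, at 11708.6, against 12813.7 on the next array and 13186.6 on the highest.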

How the results depend on the processing

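No called change of the 9 members reversed its sign in the 26 alternatives. With 1 array left out, the member genes called were 3 to 5 for AdNkx6.1 against Adβgal, 1 to 3 for Adβgal against untreated and 1 to 3 for AdNkx6.1 against untreated, and member probe sets 3 to 5, 1 to 3 and 1 to 3. For Adβgal against untreated, 3 as reported, 1 member gene and 1 member probe set were called both with the replicate block and without Adβgal replicates 4, 5 and 6; for AdNkx6.1 against untreated, 1 member probe set was called with arrays centred on the median and 1 with the replicate block. Over all genes, Adβgal against untreated gave 997 calls as reported, 1790 with array weights, 521 with only the 2 groups, 393 with the replicate block, 552 without Adβgal replicates 4, 5 and 6, 2101 with the beta-actin covariate and 509 to 1503 with 1 array left out. AdNkx6.1 against untreated gave 4360 as reported, 7469 with array weights and 3558 to 5069 with 1 array left out, and AdNkx6.1 against Adβgal gave 3560 as reported and 2783 to 3933. Median centring moved the split of higher and lower calls to 1884 and 1868 for AdNkx6.1 against Adβgal (2354 and 1206 as reported) and to 1894 and 3154 against untreated (2404 and 1956); quantile normalization gave 2070 and 1800 for AdNkx6.1 against Adβgal. The causes were not tested. The deviations of arrays with the same replicate number from their group means correlated between -0.387 and 0.249. These correlations alone cannot settle whether such arrays were paired. With the replicate block Mycl was not called for AdNkx6.1 against Adβgal (0.49, adjusted p = 0.069), nor Myc (0.68, 0.11) and Mycn (-0.79, 0.11) for Adβgal against untreated.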
